A study of Homo sapiens with 6 samples.

Results

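Collagens, laminins and the genes that remodel them were followed in PANC-1, an established human cell line from a pancreatic ductal carcinoma, with and without D(+)-raffinose pentahydrate. The set was chosen by name and holds 39 of the 60612 genes in the expression table. It has 13 collagen chains, 8 laminin chains and basement membrane proteoglycans, 8 matrix glycoproteins, 5 collagen-modifying and crosslinking enzymes, and 5 matrix metalloproteinases and their inhibitors. All 39 symbols matched 1 gene identifier each.

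The extracellular matrix has a basement membrane, a sheet of type IV collagen and laminin networks under epithelia, and an interstitial part built of fibrillar collagens. Collagen chains are hydroxylated in the endoplasmic reticulum, assembled as triple helices, secreted and crosslinked by lysyl oxidases, and metalloproteinases held in check by TIMP proteins cut them again. Pancreatic carcinoma is known for a dense collagen-rich stroma, most of which fibroblasts deposit, while tumour cells contribute basement membrane components and remodelling enzymes.

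The treated group had 3 libraries of cells given 50 µM raffinose pentahydrate, a plant trisaccharide, for 24 h. The untreated group had 3 libraries of the same line, with no vehicle and no time in their own labels. All cultures were kept in DMEM with fetal bovine serum, penicillin and streptomycin. Whether the 3 libraries of a group are separate cultures is not stated, so p-values measure only how these libraries vary, and that variation may be technical. The series title is about PI3K/AKT signalling, cell death and growth and does not mention the matrix.

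Total counts ranged from 62756117 to 63553897 in raffinose libraries and from 59723420 to 66063664 in untreated libraries. The deposited counts are estimates in which values of 4 are far more frequent than 3 or 5 (1382, 456 and 286 genes in raffinose replicate 1), so they were not read as numbers of fragments. The epithelial keratins KRT8 and KRT18 were at a mean of 334 and 455 FPKM over the 6 libraries, whereas the epithelial markers KRT19 and EPCAM were near 0 (0.139 and 0.197 FPKM). The 7 epithelial markers summed to 666 to 699 FPKM in raffinose libraries and to 864 to 1002 FPKM in untreated libraries. The 9 fibroblast markers summed to 0.392 to 0.501 FPKM and 0.388 to 0.756 FPKM, with PDPN at 0 in all 6 libraries, so the matrix transcripts below were read in libraries with next to no fibroblast marker RNA. The 6 endothelial markers summed to at most 0.0991 and 0.116 FPKM and the 5 acinar markers to 0. Of the 6 leukocyte markers CD3E was at 0, and CD68, which many cell types express in lysosomes, made up most of a sum of 7.07 to 9.54 FPKM with raffinose and 12.5 to 16 FPKM without. The part of the epithelial and CD68 differences in the results below was not tested.

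Levels between genes were compared per length, as FPKM (fragments scaled to gene length and library depth); means below are ± SD of 3 libraries. Of the 39 matrix genes 18 had a mean of at least 10 FPKM, 11 had 1 to 10 FPKM and 10 were under 1 FPKM. The secreted metalloproteinase inhibitor TIMP1 was the highest, at 122 ± 7.26 FPKM with raffinose and 144 ± 6.59 FPKM without (SD, n = 3 each). It lay above every other matrix gene in every library. The fibrillar chain COL5A2 followed at 71.8 ± 7.69 FPKM with raffinose and 66.5 ± 11.6 FPKM without, then the lysyl hydroxylase PLOD1 at 51.3 ± 0.822 FPKM with raffinose and 49.0 ± 0.912 FPKM without and the fibrillar chain COL3A1 at 41.4 ± 1.62 FPKM with raffinose and 47.0 ± 2.13 FPKM without. Below them the proteoglycan gene AGRN (28.4 to 31.8 FPKM), COL18A1 (24.4 to 29.2 FPKM), LOXL2 (24.8 to 29.2 FPKM) and THBS1 (23.7 to 27.4 FPKM) followed, and the ranges of neighbours in this order overlapped.

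The laminin chains LAMC1 (18.7 to 25.2 FPKM), LAMB2 (18.6 to 22.3 FPKM), LAMB1 (16.1 to 20.1 FPKM) and LAMA5 (14.3 to 18.8 FPKM) came next, again with overlap between neighbours. The type IV collagen chains of the set were low beside them, with COL4A2 at 2.04 to 2.44 FPKM and COL4A1 at 1.28 to 1.47 FPKM. COL1A1, the main chain of bone and skin collagen, was at 3.03 to 3.98 FPKM, while COL1A2, its usual partner, was read in only 2 of 6 libraries, at 1.36 CPM in raffinose replicate 1 and 2.47 CPM in untreated replicate 3. LOXL1, a lysyl oxidase of elastic fibres, had 0, 0.190 and 0.0621 CPM in raffinose libraries, against 0.0623, 0 and 0 CPM in untreated libraries. It was the one matrix gene too low to be tested.

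**Figure D1:**
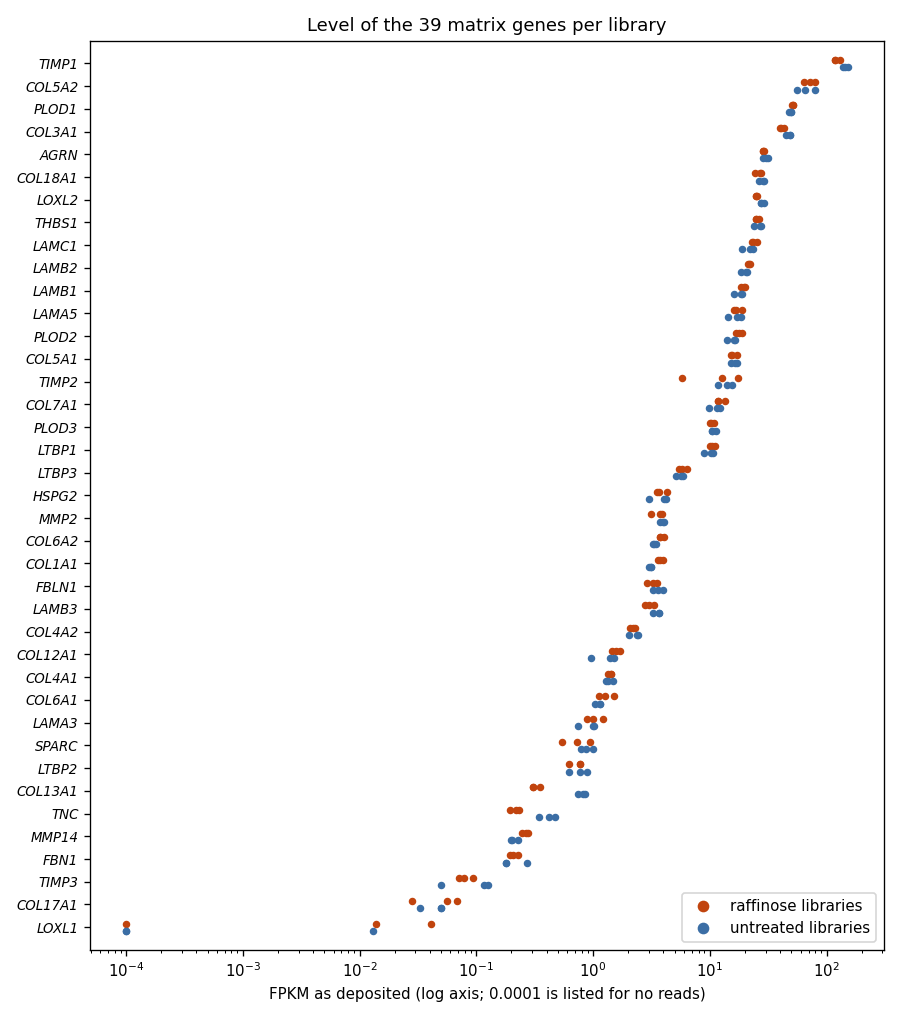
Deposited FPKM of the 39 matrix genes on a log axis, 1 point per library, with raffinose libraries in orange and untreated libraries in blue. TIMP1 is highest at 117 to 152 FPKM, and COL13A1 and TNC, near the low end, are the genes in which the orange points stand furthest left of the blue ones.

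Changes were tested over all 18863 genes that passed a filter on low counts, with edgeR's quasi-likelihood test, and a gene counts as called where the p, adjusted by Benjamini-Hochberg over all of them, is under 0.05. CPM below are depth-scaled counts after TMM, and each log2 fold change is that of raffinose over untreated, its standard error (SE) coming from the fit. Of the 39 matrix genes 38 were tested, each with at least 10 counts in all 6 libraries. One of them fell, COL13A1, and 0 rose, where 0.122% of all tested genes were called in either direction, 0.0371% higher and 0.0848% lower. DESeq2, which called 3.51% of the tested genes, 1.35% higher and 2.17% lower, called COL13A1, TNC and COL3A1 lower and 0 matrix genes higher. An unadjusted p under 0.05 in edgeR was found for 6 of 38 matrix genes (15.8%) and for 13.3% of all tested genes. Of the 38, 5 had such a p and were lower, against 7.08% of all tested genes. Among all tested genes with such a p, 1335 of 2506 were lower, beside 5 of the 6 matrix genes. The groups did not overlap for 12 of 38, 5 higher and 7 lower, against 21.5% of all tested genes. In bulk RNA, fewer cells of a type and less RNA per cell cannot be told apart.

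The median log2 fold change of the 38 genes was -0.025, beside 0.0059 over all tested genes, and 17 were positive and 21 negative. Their median absolute log2 fold change was 0.12, beside 0.18 over all tested genes. For 32 of the 38 the estimate lay within 0.25 of 0, beside 61.9% of all tested genes, and only COL13A1 exceeded 1 in absolute value. Medians were 0.075 for the collagen chains, 0.043 for laminins and basement membrane proteoglycans, -0.087 for matrix glycoproteins, -0.023 for the 4 tested enzymes and -0.24 for metalloproteinases and inhibitors.

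**Figure D2:**
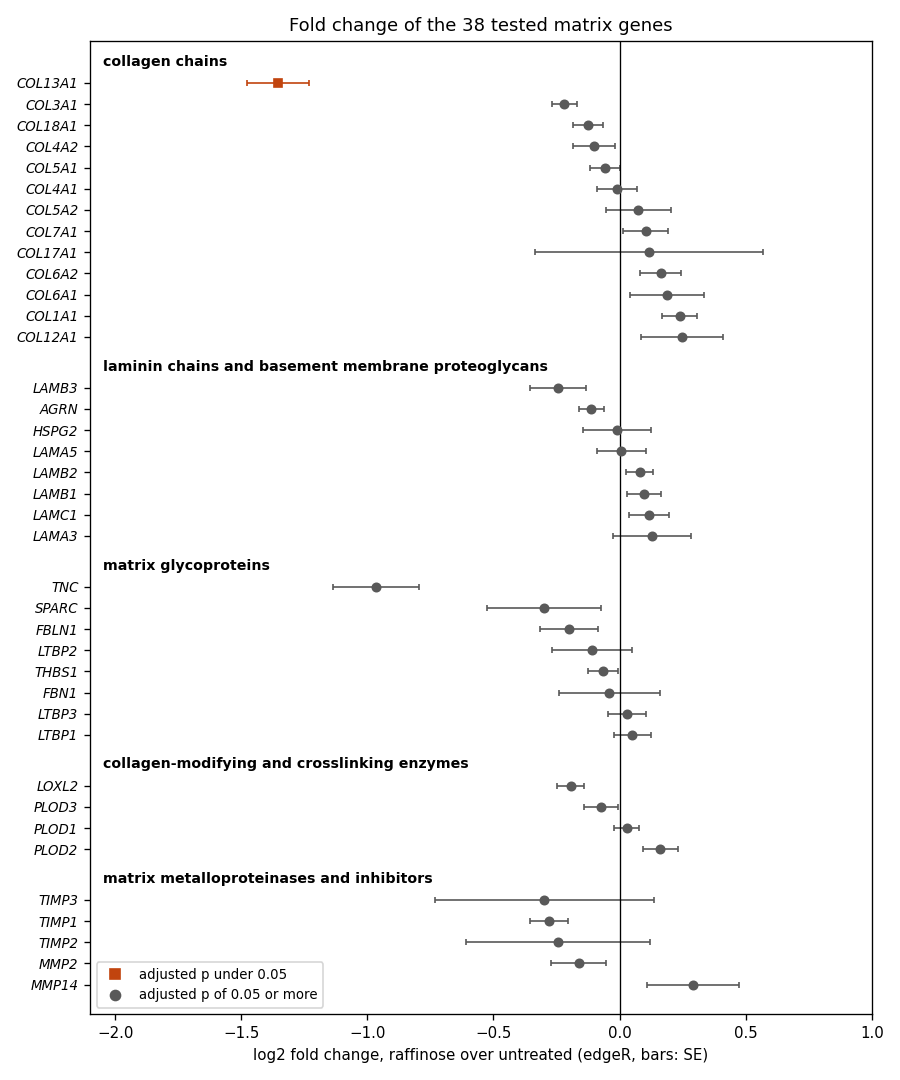
Log2 fold change of raffinose over untreated for the 38 tested matrix genes, sorted within 5 groups, with bars of 1 SE from the edgeR fit; the square marks the gene with an adjusted p under 0.05. COL13A1 at -1.36 and TNC at -0.97 stand apart, and the other 36 lie between -0.30 and 0.29.

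COL13A1 encodes a transmembrane collagen that sits at cell adhesion sites and neuromuscular junctions (ENSG00000197467, chromosome 10, 69801867 to 69964275, plus strand). It had 3.67, 4.19 and 3.54 CPM in raffinose libraries, against 9.11, 9.86 and 10.2 CPM in untreated libraries. Each raffinose library lay below each untreated library, and the level with raffinose was 0.391 times that without. Its log2 fold change was -1.36 (adjusted p = 0.0230, SE 0.12), with an adjusted p of 1.59e-16 in DESeq2. The values rest on 228 to 265 counts with raffinose and 585 to 636 without, at 0.320 ± 0.0248 FPKM with raffinose and 0.804 ± 0.0581 FPKM without. With any 1 library left out the log2 fold change was -1.43 to -1.31 and edgeR no longer called it (adjusted p 0.0587 to 0.111).

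RefSeq promoter windows (GRCh38.p14, 250 bases before to 50 after the RefSeq start, read on the gene's strand) are shown for COL13A1 and TNC, the genes with the largest fold changes. For both genes the RefSeq start differs from the start in the gene coordinates of the expression table. Capitals mark matches, searched on both strands, to any of 4 motifs. The TATA box was spelled TATAAA. The GC box, which the factor SP1 and its relatives bind, was spelled GGGCGG. The pentamer known as the CCAAT box was spelled as its name. The site of the AP-1 factors was spelled TGANTCA. None of the matches overlapped another in the windows shown. The COL13A1 window spans chr10:69801656-69801955 on the plus strand and the TNC window chr9:115118108-115118407 on the minus strand.
COL13A1: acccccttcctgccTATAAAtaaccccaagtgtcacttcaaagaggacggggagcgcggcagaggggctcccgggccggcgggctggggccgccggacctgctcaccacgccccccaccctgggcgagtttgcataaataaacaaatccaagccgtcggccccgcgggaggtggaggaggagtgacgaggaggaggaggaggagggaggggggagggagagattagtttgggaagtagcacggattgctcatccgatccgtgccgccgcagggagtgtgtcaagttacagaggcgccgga
TNC: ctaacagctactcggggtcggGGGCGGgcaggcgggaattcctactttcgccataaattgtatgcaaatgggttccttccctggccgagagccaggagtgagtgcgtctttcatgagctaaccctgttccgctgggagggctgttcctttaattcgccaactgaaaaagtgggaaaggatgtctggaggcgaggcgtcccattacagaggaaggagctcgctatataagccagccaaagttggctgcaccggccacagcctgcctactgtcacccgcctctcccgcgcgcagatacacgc
The COL13A1 window holds 1 TATA box at position -236, counting the RefSeq start as 0, and none of the other 3 motifs. The TNC window holds 1 GC box at position -229 and no match to the other 3 spellings, so the 2 windows share no match to these exact spellings. Variant spellings, such as the tatataag in the TNC window, were not searched, so a TATA box of another spelling is not excluded. Among all 35116 windows 11.5% hold the TATA box, 45.0% the GC box, 34.6% the CCAAT box and 7.7% the AP-1 site. Windows were found for 31 of the 39 matrix genes, 38 windows in all, of which 5 hold the TATA box, 30 the GC box, 9 the CCAAT box and 2 the AP-1 site (1 of LAMB3 and that of LAMA3).

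Among the fibrillar collagens COL3A1 (ENSG00000168542, chromosome 2, 188974373 to 189012746, plus strand), a chain of distensible tissues, had 322, 331 and 341 CPM in raffinose libraries, against 373, 390.5 and 394 CPM in untreated libraries. The groups did not overlap, yet the log2 fold change of -0.22 (adjusted p = 0.178, SE 0.05) was not called by edgeR, while DESeq2 gave an adjusted p of 0.0344. COL1A1 had 42.7, 38.9 and 39 CPM in raffinose libraries, against 33.9, 33.8 and 34.5 CPM in untreated libraries, so the groups stood apart in the other direction. Its log2 fold change was 0.24 (adjusted p = 0.242, SE 0.069). COL5A2, which lies 19151 bases from COL3A1 and is read towards it, had 688, 563 and 615 CPM in raffinose libraries, against 507, 692 and 572 CPM in untreated libraries. The raffinose and untreated libraries of COL5A2 overlapped over most of their range, with a log2 fold change of 0.075 (adjusted p = 0.848, SE 0.13). COL5A1, the other chain of type V collagen, was at 211 ± 10.4 CPM with raffinose and 219 ± 7.45 CPM without, with a log2 fold change of -0.056 (SE 0.059).

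COL4A1 and COL4A2, chains of the basement membrane network, lie head to head on chromosome 13, and their gene bodies overlap by 1346 bases in the table. Their RefSeq promoter windows overlap by 226 bases read on opposite strands. The COL4A2 window is shown because it holds most of both promoters; it spans chr13:110307034-110307333 on the plus strand, and that of COL4A1 chr13:110307108-110307407 on the minus strand.
COL4A2: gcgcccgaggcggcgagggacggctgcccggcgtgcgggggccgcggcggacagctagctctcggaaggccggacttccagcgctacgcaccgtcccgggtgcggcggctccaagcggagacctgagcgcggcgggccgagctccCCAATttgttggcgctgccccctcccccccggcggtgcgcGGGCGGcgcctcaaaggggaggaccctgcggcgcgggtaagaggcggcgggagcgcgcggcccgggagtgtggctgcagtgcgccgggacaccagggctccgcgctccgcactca
It has a CCAAT box at position -105 and a GC box at position -65. COL4A1 was at 24.3 ± 0.838 CPM with raffinose and 24.4 ± 1.32 CPM without and COL4A2 at 49.9 ± 2.57 CPM with raffinose and 53.5 ± 4.22 CPM without. Neither passed the test, with log2 fold changes of -0.0096 (adjusted p = 0.977, SE 0.078) and -0.10 (adjusted p = 0.661, SE 0.083). Whether the counting used the strand is not given in the sources used here, so reads in the overlap cannot be assigned with certainty.

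Of the other collagens, COL18A1, a basement membrane collagen and the source of endostatin, had 274, 248 and 267 CPM in raffinose libraries, against 276, 296 and 289.8 CPM in untreated libraries. The raffinose libraries lay just below the untreated ones, with a log2 fold change of -0.13 (adjusted p = 0.434, SE 0.06). The antisense neighbour SLC19A1, a folate carrier that overlaps it, was at 31.0 ± 5.11 CPM with raffinose and 40.6 ± 3.61 CPM without. COL6A2, a chain of the type VI microfibrils, had 23.9, 26.0 and 23.1 CPM in raffinose libraries, against 22.1, 22.0 and 21.1 CPM in untreated libraries, and COL6A1 was at 8.19 ± 1.28 CPM with raffinose and 7.19 ± 0.448 CPM without. The COL6A2 groups did not overlap, but its log2 fold change of 0.16 (adjusted p = 0.451, SE 0.081) was not called. COL12A1, which coats fibrils, had 25, 21.6 and 23.0 CPM in raffinose libraries, against 15.0, 22.6 and 21.1 CPM in untreated libraries. Untreated replicate 1 was low in COL12A1, and the log2 fold change of 0.25 (adjusted p = 0.571, SE 0.16) was not called. COL7A1, the anchoring fibril collagen, was at 161 ± 10.9 CPM with raffinose and 149.8 ± 14.3 CPM without (log2 fold change 0.10, SE 0.09), and the hemidesmosomal COL17A1 was under 1 CPM in every library.

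No laminin chain passed the test. LAMC1, the gamma chain of most laminins, had 229, 236 and 248 CPM in raffinose libraries, against 196, 236 and 225 CPM in untreated libraries. LAMB2 had 175, 174 and 178 CPM in raffinose libraries, against 159, 171 and 169 CPM in untreated libraries. It was the one laminin chain among the matrix genes of the set whose groups did not overlap. Their log2 fold changes were 0.12 (adjusted p = 0.590, SE 0.08) and 0.08 (adjusted p = 0.578, SE 0.053). LAMA5, the alpha chain of adult basement membranes, was at 291 ± 19.5 CPM with raffinose and 289.6 ± 33.1 CPM without, and LAMB1 at 186 ± 6.48 CPM with raffinose and 174 ± 11.3 CPM without. LAMA5 shares 908 bases with ADRM1 on the other strand, a proteasome receptor gene at 223 ± 11.6 CPM with raffinose and 252 ± 24.0 CPM without.

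LAMA3 and LAMB3 encode chains of the laminin that anchors hemidesmosomes. LAMB3 had 16.5, 18.6 and 15.2 CPM in raffinose libraries, against 21.0, 20.4 and 18.2 CPM in untreated libraries, so the groups overlapped by 1 raffinose library, and its log2 fold change was -0.24 (adjusted p = 0.406, SE 0.11). LAMA3 was at 18 ± 2.59 CPM with raffinose and 16.4 ± 2.40 CPM without (log2 fold change 0.13, SE 0.15).

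Of the basement membrane proteoglycans, AGRN, which clusters acetylcholine receptors at synapses, had 362, 368 and 363 CPM in raffinose libraries, against 380.1, 409.6 and 392 CPM in untreated libraries. Every raffinose library of AGRN lay below every untreated one, by little, with a log2 fold change of -0.11 (adjusted p = 0.390, SE 0.049). HSPG2, which encodes perlecan, was at 82.3 ± 8.01 CPM with raffinose and 82.8 ± 13.1 CPM without, with a log2 fold change of -0.0094 (SE 0.13).

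**Figure D3:**
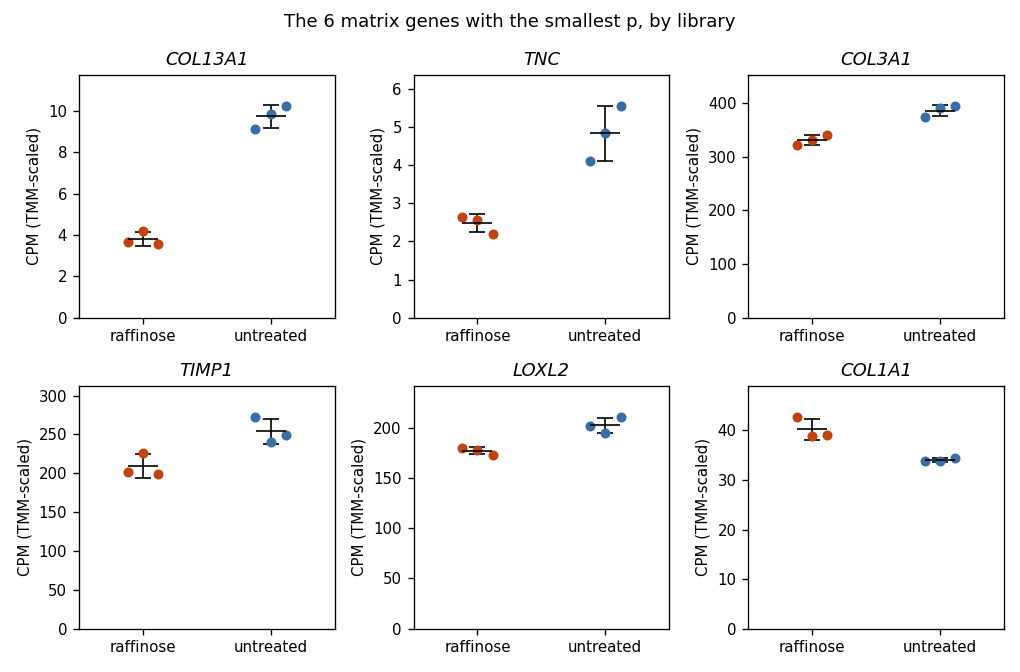
CPM after TMM scaling in each library for the 6 matrix genes with the smallest p; points are libraries, horizontal bars the mean of 3 and whiskers 1 SD. The groups do not overlap in any panel, and COL1A1 is the panel in which the raffinose libraries are the higher ones.

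Among matrix glycoproteins TNC, the tenascin of wounds and tumour stroma (ENSG00000041982, chromosome 9, 115019575 to 115118257, minus strand), had 2.65, 2.56 and 2.21 CPM in raffinose libraries, against 4.11, 4.85 and 5.54 CPM in untreated libraries. The highest raffinose library lay below the lowest untreated one, on 142 to 170 counts with raffinose and 264 to 328 without. The log2 fold change was -0.97 (adjusted p = 0.123, SE 0.17) in edgeR, and DESeq2 called it lower with an adjusted p of 0.000480. It was -1.07 to -0.86 with any 1 library left out, negative in all 6 such fits.

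The other 7 glycoproteins were not called by either tool. THBS1, a matricellular protein that can activate latent TGF-beta, had 271, 275 and 283 CPM in raffinose libraries, against 269, 300.4 and 297 CPM in untreated libraries, and its groups overlapped (log2 fold change -0.065, SE 0.06, adjusted p = 0.697). FBLN1, a fibulin of elastic and basement membrane structures, had 30.8, 25.4 and 27.7 CPM in raffinose libraries, against 35.9, 31.7 and 28.8 CPM in untreated libraries. The highest FBLN1 value with raffinose lay above the lowest without, and the log2 fold change was -0.20 (adjusted p = 0.516, SE 0.11). SPARC, a collagen-binding matricellular protein, was at 4.10 ± 1.12 CPM with raffinose and 5.04 ± 0.605 CPM without, and the microfibril gene FBN1 at 3.99 ± 0.343 CPM with raffinose and 4.11 ± 0.997 CPM without. The genes of latent TGF-beta binding proteins had log2 fold changes of 0.051 (SE 0.073) for LTBP1, -0.11 (SE 0.16) for LTBP2 and 0.029 (SE 0.075) for LTBP3.

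The lysyl oxidase gene LOXL2, whose product crosslinks collagen (ENSG00000134013, chromosome 8, 23296897 to 23425291, minus strand), had 180.2, 178 and 173 CPM in raffinose libraries, against 202, 195 and 211 CPM in untreated libraries. Its groups did not overlap, and its log2 fold change was -0.19 (adjusted p = 0.226, SE 0.053). ENTPD4, which overlaps LOXL2 on the same strand, was at 48.1 ± 2.34 CPM with raffinose and 44.5 ± 1.18 CPM without. PLOD2, which hydroxylates lysines in collagen telopeptides, had 162, 153 and 169 CPM in raffinose libraries, against 133, 150.1 and 149 CPM in untreated libraries. Here the raffinose libraries were the higher ones, with a log2 fold change of 0.16 (adjusted p = 0.390, SE 0.07). PLOD1 had 318, 331 and 321 CPM in raffinose libraries, against 327, 316 and 308 CPM in untreated libraries, and its groups overlapped (log2 fold change 0.028, SE 0.049, adjusted p = 0.850). PLOD3, which also adds sugars to hydroxylysine, was at 70.0 ± 3.97 CPM with raffinose and 73.7 ± 3.07 CPM without (log2 fold change -0.074, SE 0.069). The 3 lysyl hydroxylase genes thus had estimates of both signs, and no difference between them was tested. ZNHIT1, which shares 202 bases with PLOD3 on the other strand, was at 37.9 ± 5.20 CPM with raffinose and 41.3 ± 6.33 CPM without.

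Of the inhibitors, TIMP1 (ENSG00000102265, chromosome X, 47582408 to 47586789, plus strand) had 201, 227 and 199.7 CPM in raffinose libraries, against 272, 240.5 and 249 CPM in untreated libraries. All raffinose libraries were below all untreated ones, with a log2 fold change of -0.28 (adjusted p = 0.226, SE 0.077) that neither tool called (adjusted p = 0.0878 in DESeq2). TIMP1 lies within SYN1 on the opposite strand, and SYN1 reached 1.3% of its level. TIMP2 had 116, 38.9 and 82.7 CPM in raffinose libraries, against 98.5, 78.6 and 104 CPM in untreated libraries. Raffinose replicate 2 was far below the other 5 libraries, and the coefficient of variation was 48.8% with raffinose and 14.4% without. Without that library the log2 fold change of TIMP2 was 0.082 in place of -0.24 (SE 0.37). TIMP3, which binds to the matrix, was under 1 CPM in every library.

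MMP2, a gelatinase, was at 20.0 ± 2.36 CPM with raffinose and 22.4 ± 1.10 CPM without, with a log2 fold change of -0.16 (adjusted p = 0.583, SE 0.11). MMP14, the membrane protease that activates the MMP2 precursor together with TIMP2, had 1.45, 1.34 and 1.46 CPM in raffinose libraries, against 1.12, 1.26 and 1.10 CPM in untreated libraries. All raffinose values of MMP14 were above all untreated ones at this low level, and the log2 fold change of 0.29 (adjusted p = 0.557, SE 0.18) was not called. TIMP1 made up most of the summed level of the 5 protease and inhibitor genes, which was 138 ± 2.99 FPKM with raffinose and 162 ± 7.74 FPKM without. The sum for the 13 collagen chains was 182 ± 9.84 FPKM with raffinose and 182 ± 17.5 FPKM without. These sums were not tested.

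Chains that assemble together were compared as the ratio of their FPKM within each library. The ratio of COL4A1 to COL4A2 was 0.638 ± 0.0129 with raffinose and 0.601 ± 0.0407 without, and that of COL6A1 to COL6A2 was 0.338 ± 0.0536 with raffinose and 0.331 ± 0.0238 without. For COL5A1 to COL5A2 it was 0.224 ± 0.0279 with raffinose and 0.247 ± 0.0298 without. These 3 pairs overlapped between the groups. The ratio of LAMA5 to LAMC1 was 0.710, 0.713 and 0.746 in raffinose libraries, against 0.764, 0.799 and 0.778 in untreated libraries. It was the one ratio of 7 whose groups did not overlap, a difference of -0.11 on the log2 scale (exact permutation p = 0.1, adjusted p = 0.467). With 3 against 3 libraries p = 0.1 is the smallest value that this exact two-sided permutation test can give, so none of the 7 could be called. For LAMB1 to LAMC1 the ratio was 0.820 ± 0.0517 with raffinose and 0.832 ± 0.0258 without, and for LAMA3 to LAMB3 it was 0.344 ± 0.0841 with raffinose and 0.264 ± 0.0525 without. The ratio of MMP14 to TIMP2 was 0.0267 ± 0.0142 with raffinose and 0.0155 ± 0.00342 without, with the highest value, 0.0427, in raffinose replicate 2, where TIMP2 was low. The exact permutation p of the other 6 ratios ranged from 0.2 to 0.9.

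**Figure D4:**
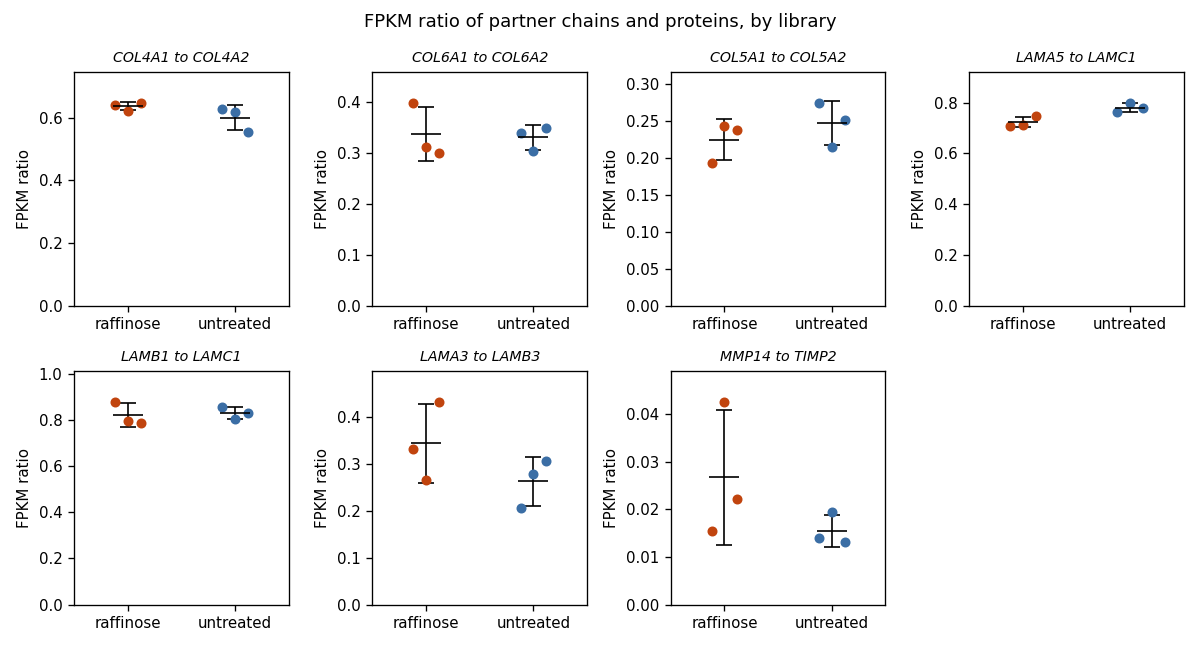
FPKM ratio within each library for 7 pairs of partner chains or proteins; points are libraries, horizontal bars the mean of 3 and whiskers 1 SD. LAMA5 to LAMC1 is the one panel without overlap, at 0.710 to 0.746 in raffinose libraries and 0.764 to 0.799 in untreated libraries.

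The median coefficient of variation of the 38 matrix genes was 6.69% in raffinose and 6.82% in untreated libraries. It was under 10% for 28 of them in raffinose and 25 in untreated libraries, and was not compared with that of other genes. Untreated replicate 1 was the lowest untreated library for 22 of the 38 genes (57.9%), against 36.5% of all tested genes, among them COL5A2, COL7A1, COL12A1, HSPG2, LAMA5, LAMB1, LAMB2 and LAMC1. Untreated replicate 2 was the highest untreated library for 18 of 38 (47.4%), against 33.8% of all tested genes. Raffinose replicate 1 was the lowest of its group for 15 of 38 (39.5%), against 30.3% of all tested genes. Without untreated replicate 1 the median log2 fold change of the set was -0.082. The part of that library in the single fold changes was not tested further.

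A further 132 genes of matrix biology in 6 lists were read from the same fit. Apart from MIA3 and DAG1, the genes named from them below were picked for a small unadjusted p and do not stand for their lists. Of these 85 were tested, 41 with a positive and 44 with a negative log2 fold change and a median of -0.020. edgeR called 0 of them, against 0.122% of all tested genes. An unadjusted p under 0.05 was found for 20 of the 85 (23.5%), against 13.3% of all tested genes. DESeq2 called 3 higher and 4 lower, 7 of 85, against 3.51% of all tested genes. It gave no adjusted p for 23 of the 85, among them ADAMTS2, COL4A4 and NID2.

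In collagen biosynthesis, with 24 of 25 genes tested, P4HA1, a catalytic subunit of prolyl 4-hydroxylase, was at 76.9 ± 2.33 CPM with raffinose and 59.7 ± 2.25 CPM without (log2 fold change 0.37, SE 0.06, adjusted p = 0.117; DESeq2 adjusted p = 0.000515). P3H2, a prolyl 3-hydroxylase of basement membrane collagen, was at 84.1 ± 3.08 CPM with raffinose and 106 ± 0.864 CPM without (log2 fold change -0.33, SE 0.055, adjusted p = 0.117; DESeq2 adjusted p = 0.000554). The procollagen protease gene ADAMTS2 was at 0.969 ± 0.282 CPM with raffinose and 0.257 ± 0.143 CPM without, on 235 counts in all. DESeq2 thus put P4HA1 up and P3H2 down, and its other call in this list was MIA3, a procollagen export factor named after its values were seen, which was higher (log2 fold change 0.49, SE 0.13).

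Of 31 further collagen chains 15 were tested. COL16A1, a fibril-associated chain, had 38.6, 38.4 and 40.8 CPM in raffinose libraries, against 49.2, 51.7 and 51.0 CPM in untreated libraries, and was the chain of this list that DESeq2 called lower (log2 fold change -0.37, SE 0.063, adjusted p = 0.119 in edgeR, 0.000479 in DESeq2). The type IV chains COL4A6 and COL4A4 were at 13.0 ± 0.784 CPM with raffinose and 17.0 ± 1.72 CPM without and at 1.21 ± 0.380 CPM with raffinose and 0.470 ± 0.154 CPM without. Among 8 further laminins and nidogens 7 were tested. LAMC3 was at 7.99 ± 1.27 CPM with raffinose and 10.4 ± 0.896 CPM without, and its groups did not overlap. NID2, a nidogen, had 0 counts in all 3 raffinose libraries and 0.284 ± 0.118 CPM without raffinose, on 54 counts.

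Of 9 collagen and laminin receptors, all tested, 6 were positive, with a median log2 fold change of 0.33. Estimates ranged from -0.29 to 1.01. The highest, DAG1, had 42.8, 42.7 and 257 CPM in raffinose libraries, against 102, 38.4 and 29.7 CPM in untreated libraries. With any 1 library left out the log2 fold change of DAG1 was -0.41 to 1.74. ITGA1, the alpha chain of a collagen-binding integrin, had 7.73, 6.97 and 6.95 CPM in raffinose libraries, against 4.66, 4.88 and 4.76 CPM in untreated libraries, and DESeq2 called it higher (log2 fold change 0.60, SE 0.11, adjusted p = 0.146 in edgeR, 0.00179 in DESeq2). ITGB4, the laminin-binding integrin chain of hemidesmosomes, had 58.5, 61.5 and 62.1 CPM in raffinose libraries, against 71.1, 71.8 and 80.2 CPM in untreated libraries, and DESeq2 called it lower (log2 fold change -0.29, SE 0.071, adjusted p = 0.198 in edgeR, 0.0394 in DESeq2). ITGB1, the shared beta chain, was at 1213 ± 71.7 CPM with raffinose and 962 ± 163 CPM without and was not called. Of the proteases and inhibitors 12 of 27 were tested and 0 called by either tool, with RECK, a membrane-anchored inhibitor, at 16.6 ± 0.301 CPM with raffinose and 13.3 ± 0.908 CPM without, MMP19 at 1.44 ± 0.465 CPM with raffinose and 2.72 ± 0.0279 CPM without and MMP24 at 2.35 ± 0.168 CPM with raffinose and 3.03 ± 0.286 CPM without. Of the further glycoproteins and proteoglycans 18 of 32 were tested and 0 called by either tool. DESeq2 gave no adjusted p for 3 of those 12 proteases and inhibitors and for 6 of these 18 genes, SPP1 and FBN2 included. SPP1, which encodes osteopontin, was at 0.376 ± 0.0715 CPM with raffinose and 0.894 ± 0.187 CPM without, EFEMP2, a fibulin, at 2.78 ± 0.354 CPM with raffinose and 1.70 ± 0.543 CPM without, and FBN2 at 0.0836 ± 0.0860 CPM with raffinose and 0.433 ± 0.0518 CPM without.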

How the data were processed

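Poly(A) RNA of 6 PANC-1 libraries was sequenced as strand-marked read pairs of 150 bases, per the labels' protocols. StringTie 1.3.4d, HISAT2 2.0.4 and cutadapt 1.9 are listed, beside edgeR and DESeq2, in the submitters' processing notes, which give them no role or order; the build is not given in the sources used here. Identifiers shared with GENCODE 29 number 58394, 84.6% of them with the same start. The authors deposited FPKM values (0.0001 where no read was found) and estimated counts, as whole numbers, per the file headers. Counts were fitted as deposited in edgeR 4.0.16 (R 4.3.3) with filterByExpr (minimum count 10), TMM and a quasi-likelihood test over all genes; a test of DESeq2 1.42.0 on the same genes and limma 3.58.1 on log2(FPKM + 0.1) and log2(FPKM + 1) were alternatives. Other alternatives were DESeq2's size factors, library totals, no filter, a filter at FPKM 1, counts divided by 4, robust dispersion, a replicate block and leaving out each library. Ratios were compared by an exact permutation test over libraries. Fits were tested on simulated data. Of simulated 1.5-fold changes edgeR recovered 2% and DESeq2 22%, and of 2-fold changes 30% and 50%. A small change that edgeR does not call may thus still be present. False calls among unchanged genes numbered 4 in edgeR and 62 in DESeq2, so a gene that only DESeq2 calls may be a false call. SE is the log2 fold change over the root of F.

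The matrix genes, lists and alternatives were chosen with earlier results of these data known. Of the matrix genes, values in every library are given for those called by either tool, the 15 with the smallest p and the 10 with the highest FPKM. Of other genes, some of those overlapping a matrix gene are named, and per further list up to 3 of those with the smallest unadjusted p. MIA3, DAG1 and COL1A2 were added after their values were seen, and cell type markers are named beside their sums. A result for 1 gene of the further lists is not reported here.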

Additional observations from a re-analysis of the deposited data

How the results depend on the processing

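Against 7 genes higher and 16 lower in all, and 0 and 1 of the matrix genes, DESeq2 called 254 and 409, with 3 matrix genes lower. A filter at FPKM 1 gave 15 and 27, with 0 matrix genes lower, since COL13A1 and TNC lie under it and were not tested. limma on log2(FPKM + 0.1) gave 11 higher and counts divided by 4 gave 11 higher; the cause was not tested. On log2(FPKM + 0.1) 0 matrix genes were lower, COL13A1 having a log2 fold change of -1.11 (adjusted p = 0.0729). Leaving out 1 library at a time gave 0 to 15 genes higher and 4 to 13 lower, and matrix genes lower were 0 in all 6 fits. The median of the matrix genes ranged from -0.082, without untreated replicate 1, to -0.0026, without untreated replicate 2.

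With a replicate block edgeR called 0 genes higher, 0 lower and 0 matrix genes lower, although 1932 genes had an unadjusted p under 0.05; COL13A1 kept -1.36 (adjusted p = 0.430). Same-numbered libraries deviated from their group means with correlations of -0.0089, -0.033 and 0.0063, and 0 of 6 had their own number as best match, so the numbers were not taken as pairs.

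Of 38 tested matrix genes 28 kept their sign in every fit that tested them. COL4A1 turned to 0.022 with library totals alone, 0.0055 at FPKM 1, and 0.025 and 0.015 in limma at pseudocounts of 0.1 and 1. HSPG2 turned to 0.022, 0.0057, 0.035 and 0.027 in the same fits, and FBN1 to 0.0062 at a pseudocount of 0.1. With libraries left out COL4A1 ranged from -0.041 to 0.035, HSPG2 from -0.14 to 0.075, FBN1 from -0.14 to 0.18, COL5A2 from -0.024 to 0.21, COL17A1 from -0.16 to 0.41, LAMA5 from -0.082 to 0.081, LTBP1 from -0.0053 to 0.097, LTBP2 from -0.22 to 0.0089, LTBP3 from -0.022 to 0.075 and TIMP2 from -0.62 to 0.082. None of these 10 was called in any fit. The log2 difference of the COL6A1 to COL6A2 ratio ranged from -0.11 to 0.095 and that of LAMB1 to LAMC1 from -0.073 to 0.0091. Depth limits LOXL1, COL17A1 and TIMP3, all under 1 CPM, and DESeq2 gave COL17A1 and TIMP3 no adjusted p.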
